A study of Homo sapiens with 8 samples.

Results

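The clustered protocadherin genes are 53 protein-coding genes of human chromosome 5 whose names begin PCDHA, PCDHB or PCDHG, out of 19648 protein-coding genes counted. Genes were included by name and chromosome alone, but the set was picked with earlier results of these data known. The alpha cluster holds 15 of them, the beta cluster 16 and the gamma cluster 22. Their acetylation was read by chromatin immunoprecipitation and sequencing in KGN, an established line grown from a human ovarian granulosa cell tumour. Butyrate, a fatty acid made by gut bacteria and a known inhibitor of histone deacetylases, was given at 1 mM for 6 h. Control cells were cultured without it. Each condition had 1 library for histone H3 acetylated at lysine 9 (H3K9ac), 1 for histone H4 acetylated at lysine 16 (H4K16ac), 1 for a nonspecific immunoglobulin (IgG) and 1 for input chromatin, which was not analysed here. With 1 library per antibody and condition, every difference below is between a pair of libraries and none could be tested.

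Clustered protocadherins are cell adhesion proteins with cadherin repeats outside the cell. In the alpha and gamma clusters each variable first exon has its own promoter and is spliced to constant exons that all genes of the cluster share. The beta genes have no such shared exons. Neurons are best known for their use: each cell switches on a small, partly random set of the promoters, and the resulting surface code lets a neuron tell its own branches from those of other cells. The C-type genes (PCDHAC1, PCDHAC2, PCDHGC3, PCDHGC4 and PCDHGC5) stand at the ends of their clusters and are, in mouse neurons, used less randomly. H3K9ac marks the promoters of active genes, and H4K16ac goes with open, transcribed chromatin.

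The promoters themselves show how the genes are related and can be set beside that of an acetylated neighbour. Most variable promoters carry a conserved sequence element with the core CGCT, known as a binding place of the insulator protein CTCF. The letters GGCGCT, or AGCGCC for the other strand, were searched in RefSeq promoter sequences of build GRCh38.p14, which run from 250 bases before to 50 bases after the gene start. Of the 53 genes, 47 had a sequence. PCDHA3, PCDHA13, PCDHB6, PCDHB11, PCDHGA12 and PCDHGC5 did not. Among beta promoters 13 of 14 held the letters, each on the plus strand, and PCDHB1 did not hold them. The stretch around them is shown for these 13, 5′ to 3′ on the plus strand with the searched letters in capitals, because it is what the beta promoters share.
PCDHB2, chr5:141094546-141094575: gagacgcggggtGGCGCTgcagccttagaa
PCDHB3, chr5:141100395-141100424: cgaacgcatggtGGCGCTgttgactaagaa
PCDHB4, chr5:141121725-141121754: aagacgcagggtGGCGCTgcaggctaagtt
PCDHB5, chr5:141135181-141135210: aggacgcctggtGGCGCTgcaggctaagag
PCDHB7, chr5:141172568-141172597: aaaacgcaaggtGGCGCTgctggctaaaaa
PCDHB8, chr5:141177779-141177808: aggacccgtggtGGCGCTgcaggataagaa
PCDHB16, chr5:141182312-141182341: agaacgcgtggtGGCGCTgcaggttaagat
PCDHB9, chr5:141187076-141187105: aagccacaaggtGGCGCTgcagactgaaga
PCDHB10, chr5:141192301-141192330: aggccacacggtGGCGCTgcaggctaaaga
PCDHB12, chr5:141208645-141208674: gagacgcgtggtGGCGCTgcaggataatat
PCDHB13, chr5:141213867-141213896: aggacgcgtggtGGCGCTgcaggataagaa
PCDHB14, chr5:141223265-141223294: gagacacatggtGGCGCTacaggataagac
PCDHB15, chr5:141245316-141245345: acaacgcatggtGGCGCTgcaggctaaggc
Besides the searched letters, 8 of the flanking positions were identical in all 13 stretches, 5 before the letters and 3 after them. The letters began between 81 bases before the gene start, in PCDHB4, and 1 base after it, in PCDHB8, with a median of 63 bases before it. In the alpha cluster 1 of 13 promoters held the letters (PCDHAC1) and in the gamma cluster 8 of 20. Over all 3 clusters this was 46.8% of promoters, against 28.0% of the 15811 protein-coding genes with a sequence. A match is a run of letters only, and binding was not measured here. The searched letters are longer than the core CGCT and are the form that the beta promoters share. A promoter with CGCT in other surroundings, such as PCDHGA1 below, is not counted. Lack of a match therefore does not mean lack of the element.

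Whole promoters are given for 3 clustered genes and for TAF7, a neighbour of the gamma cluster and a subunit of the general transcription factor TFIID, because TAF7 was acetylated and the protocadherins beside it were not listed. PCDHGA1 is the gamma gene nearest to TAF7, PCDHB2 the beta gene nearest to the peak described below, and PCDHGC3 a C-type gene with 3 copies of the searched letters (capitals). Each is written 5′ to 3′ on the gene's own strand.
PCDHGA1, chr5:141330264-141330563, plus strand: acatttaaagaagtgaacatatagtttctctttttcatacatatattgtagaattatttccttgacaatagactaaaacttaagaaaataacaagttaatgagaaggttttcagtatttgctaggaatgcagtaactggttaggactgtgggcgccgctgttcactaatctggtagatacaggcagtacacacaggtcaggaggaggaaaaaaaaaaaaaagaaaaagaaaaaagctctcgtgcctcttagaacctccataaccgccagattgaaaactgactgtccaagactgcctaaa
PCDHB2, chr5:141094365-141094664, plus strand: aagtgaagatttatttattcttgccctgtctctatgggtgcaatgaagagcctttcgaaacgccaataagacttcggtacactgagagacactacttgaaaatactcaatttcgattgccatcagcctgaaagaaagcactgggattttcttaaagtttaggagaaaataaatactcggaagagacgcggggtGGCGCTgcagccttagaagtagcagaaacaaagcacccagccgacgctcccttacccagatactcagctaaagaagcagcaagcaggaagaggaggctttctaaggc
PCDHGC3, chr5:141475716-141476015, plus strand: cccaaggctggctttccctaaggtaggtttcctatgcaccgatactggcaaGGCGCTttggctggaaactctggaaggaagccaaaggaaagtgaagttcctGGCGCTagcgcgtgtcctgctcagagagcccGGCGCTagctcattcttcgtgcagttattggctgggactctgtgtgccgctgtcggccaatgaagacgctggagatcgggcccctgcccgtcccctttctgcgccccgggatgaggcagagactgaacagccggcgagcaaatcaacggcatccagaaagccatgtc
TAF7, chr5:141320735-141321034, minus strand: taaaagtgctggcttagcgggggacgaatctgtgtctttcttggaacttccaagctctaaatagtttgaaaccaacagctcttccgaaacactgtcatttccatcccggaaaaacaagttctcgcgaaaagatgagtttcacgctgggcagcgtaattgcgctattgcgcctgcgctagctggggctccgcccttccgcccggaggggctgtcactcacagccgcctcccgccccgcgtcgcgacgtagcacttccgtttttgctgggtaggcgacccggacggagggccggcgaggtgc
The TAF7 sequence has 27 CpG dinucleotides, against 18 in PCDHGC3, 10 in PCDHB2 and 4 in PCDHGA1. Among the protocadherin windows not printed, PCDHAC1 also has 27 and PCDHGC4 has 23. None of the searched letters occur in the TAF7 or PCDHGA1 window.

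No clustered protocadherin had an acetylation peak at its promoter, with butyrate or without it. A gene was counted when a peak of the deposited list reached within 1 kb of its start. For H3K9ac this was met by 0 of 53 genes in butyrate-treated cells and 0 of 53 in control cells. Over all 19648 protein-coding genes it was met by 64.6% with butyrate and 55.6% in control. For H4K16ac the count was again 0 of 53 with butyrate and 0 of 53 in control, against 5.11% and 19.9% of all genes. Every cluster gave the same counts: 0 of 15 alpha genes, 0 of 16 beta genes and 0 of 22 gamma genes in each of the 4 lists. The 6 protocadherin pseudogenes of the region (PCDHA14, PCDHB17P, PCDHB18P, PCDHB19P, PCDHGB8P and PCDHGB9P) also had no peak within 1 kb in any of the 4 lists.

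A gene is called gained when it had a promoter peak in the butyrate list alone, and lost when it had one in the control list alone. No clustered protocadherin was gained or lost for either mark. Over all genes, 9.16% gained and 0.173% lost an H3K9ac promoter peak with butyrate, and 2.69% gained and 17.5% lost one for H4K16ac. A lack of any peak in all 4 lists was shared with 6570 genes in all, 33.4% of the protein-coding genes counted, the protocadherins included.

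These zeros are limits of detection, since a peak list holds only sites that pass the caller's threshold. At the genome-wide background, the fewest overlapping fragments that could be listed were 9 with butyrate and 8 in control for H3K9ac, and 7 and 6 for H4K16ac. The implied depth was 29.4 M reads (M, 1000000 reads) with butyrate and 24.3 M in control for H3K9ac, and 23.8 M with butyrate and 17.4 M in control for H4K16ac. Acetylation below these limits was not detectable at this depth. The exons of a cluster also resemble each other, and how reads that match several places were treated is not given in the sources used here, so values over these exons are uncertain. The numbering of the listed peaks was unbroken, with 0 numbers missing in each list. The IgG lists held 2 peaks with butyrate and 6 in control, 0 of them on chromosome 5.

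**Figure D1:**
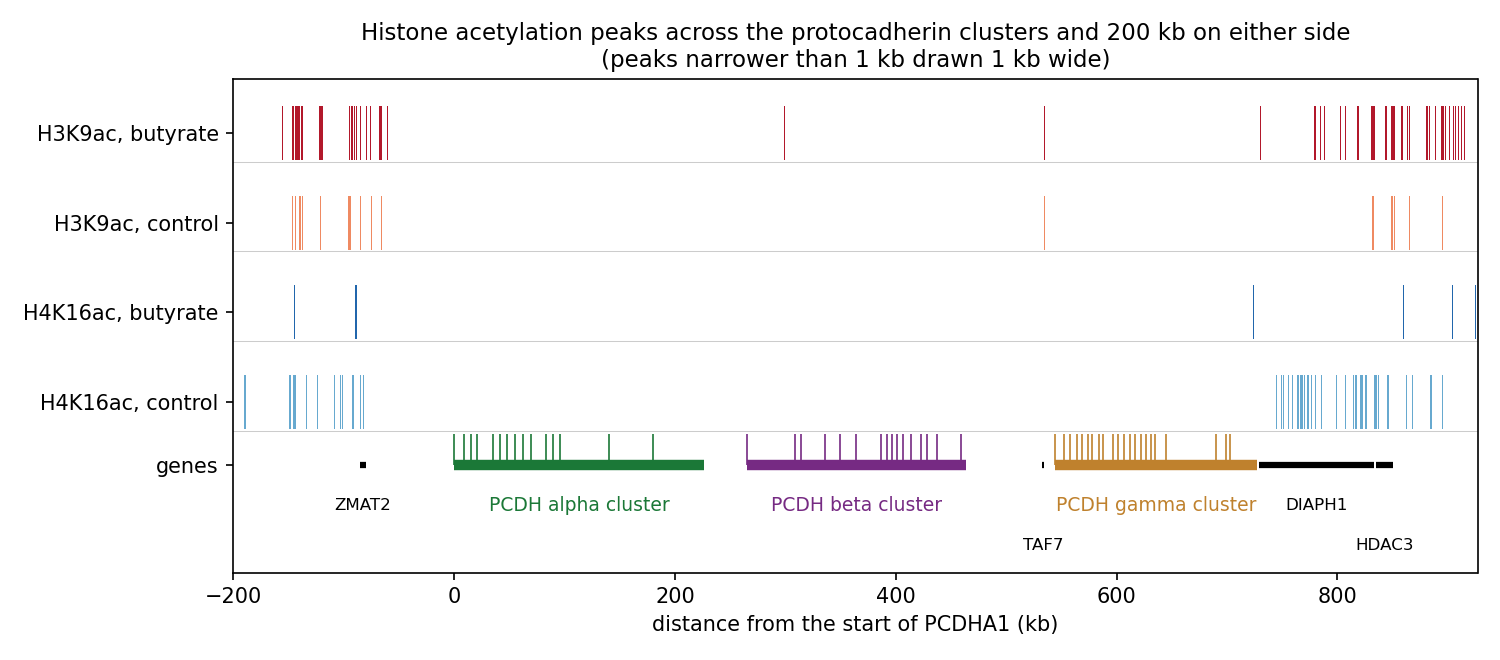
Peaks of the 4 histone lists (rows, butyrate above control for each mark) by distance in kb from the start of PCDHA1, with the 3 clusters as coloured bars, their gene starts as ticks, and 4 neighbours in black; peaks narrower than 1 kb are drawn 1 kb wide. Between the flanks, the butyrate H3K9ac list has 1 peak inside the beta cluster and the butyrate H4K16ac list 1 inside the gamma cluster, and both H3K9ac lists have a peak at TAF7.

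Across the whole length of the clusters, introns and intergenic sequence included, 2 peaks were listed, both with butyrate. The alpha cluster (chr5:140786140-141012347, 226 kb) held 0 peaks in all 4 lists. Its constant exons lie within the locus PCDHACT (chr5:140978949-141012344), which also held 0. At the genome-wide density, a stretch as long as the alpha cluster would hold 5.93 H3K9ac peaks with butyrate and 1.66 in control, and 2.52 and 5.50 H4K16ac peaks. The beta cluster (chr5:141051374-141249365, 198 kb) held 1 H3K9ac peak with butyrate and 0 in control, where the density would give 5.19 and 1.45. It held 0 H4K16ac peaks in both conditions, where the density would give 2.21 and 4.81. The gamma cluster (chr5:141330514-141512975, 182 kb) held 0 H3K9ac peaks in both conditions, where the density would give 4.78 and 1.34. It held 1 H4K16ac peak with butyrate and 0 in control, against 2.03 and 4.43 at the genome-wide density.

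The H3K9ac peak in the beta cluster lay between PCDHB1 and PCDHB2, in no protocadherin gene, at chr5:141084772-141085064. It was 293 bp wide and ended 9.55 kb before the start of PCDHB2. The authors' fold over local background was 2.51, with a −log10 p of 2.97 and a −log10 q of 1.31. Its summit had 9 fragments over a local background of 2.98. The peak thus stood near the limit of its list, whose lowest −log10 p was 2.97, and below the lowest −log10 p of the control list, 3.46. A peak of this strength would not have been listed in control, so its presence in the butyrate list alone cannot be read as a difference between conditions.

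The H4K16ac peak in the gamma cluster lay at chr5:141509650-141509997, inside all 22 gamma genes, in what the authors' deposited table gives as the last intron. The authors' deposited table ties it to 18 overlapped genes, all of them protocadherins. It was 348 bp wide, with a fold of 2.49, a −log10 p of 2.42 and a −log10 q of 0.207. This is the lowest −log10 q of that list, equal to a q of 0.621, so it too stood at the edge of what was listed. It lay 20.6 kb downstream of the start of PCDHGC5, the last gamma gene, and had no H3K9ac peak over it in either condition.

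On both sides of the clusters peaks were listed above the genome-wide density for H3K9ac in both conditions and for control H4K16ac, and near it for butyrate H4K16ac. At that density 200 kb would hold 5.24 H3K9ac peaks with butyrate and 1.47 in control, and 2.23 and 4.86 H4K16ac peaks. The 200 kb before PCDHA1 held 24 H3K9ac peaks with butyrate and 12 in control, and 3 and 16 H4K16ac peaks. The 200 kb after the gamma cluster held 30 H3K9ac peaks with butyrate and 7 in control, and 3 and 34 H4K16ac peaks. Over the 727 kb from the first alpha to the last gamma gene, the counts were 2 H3K9ac peaks with butyrate and 1 in control, and 1 and 0 H4K16ac peaks. This span holds 55 protein-coding starts, those of the 53 protocadherins, of SLC25A2, a mitochondrial carrier, and of TAF7.

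Of these 55 starts, TAF7 alone had a promoter peak in these lists. Its H3K9ac peak was chr5:141320369-141321456 with butyrate, 1088 bp wide, with a fold of 8.62, a −log10 q of 20.6 and 35 fragments at the summit. In control it was chr5:141320370-141320787, 418 bp wide, with a fold of 4.45, a −log10 q of 7.15 and 22 fragments. The butyrate peak was the wider and stronger of the pair, and folds of separately called libraries can be set side by side only roughly. The start of PCDHGA1 lies 9.06 kb from the butyrate peak and 9.73 kb from the control peak. Neither condition listed an H4K16ac peak at TAF7.

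The genes around the clusters carried H3K9ac in both conditions. Of the 17 protein-coding genes with a start between the clusters or within 200 kb of them, 13 (76.5%) had an H3K9ac promoter peak with butyrate and the same 13 in control, against 64.6% and 55.6% of all genes. HDAC3, a histone deacetylase and itself a target of butyrate, had a fold of 6.28 over 2795 bp with butyrate and 7.93 over 966 bp in control. ARAP3, a regulator of small GTPases, had a fold of 5.88 over 3301 bp with butyrate and 4.10 over 1159 bp in control. ZMAT2, a splicing factor and the last protein-coding gene before the alpha cluster, had a fold of 4.53 with butyrate and 8.22 in control. DIAPH1, an actin-nucleating formin next to the gamma cluster, had a fold of 5.26 with butyrate and 10.98 in control. At these summits HDAC3 had 33 fragments with butyrate and 33 in control, and ARAP3 had 39 and 15. ZMAT2 had 20 and 32, and DIAPH1 had 50 and 45. The local background at DIAPH1 was 8.70 with butyrate and 3.19 in control, so its lower butyrate fold is not a lower fragment count. The butyrate HDAC3 peak also overlaps another control peak, 673 bp wide. For H4K16ac, 1 of the 17 had a promoter peak with butyrate (TMCO6) and 4 in control (TMCO6, ZMAT2, DIAPH1 and ARAP3), shares of 5.88% and 23.5% that are close to the 5.11% and 19.9% of all genes.

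**Figure D2:**
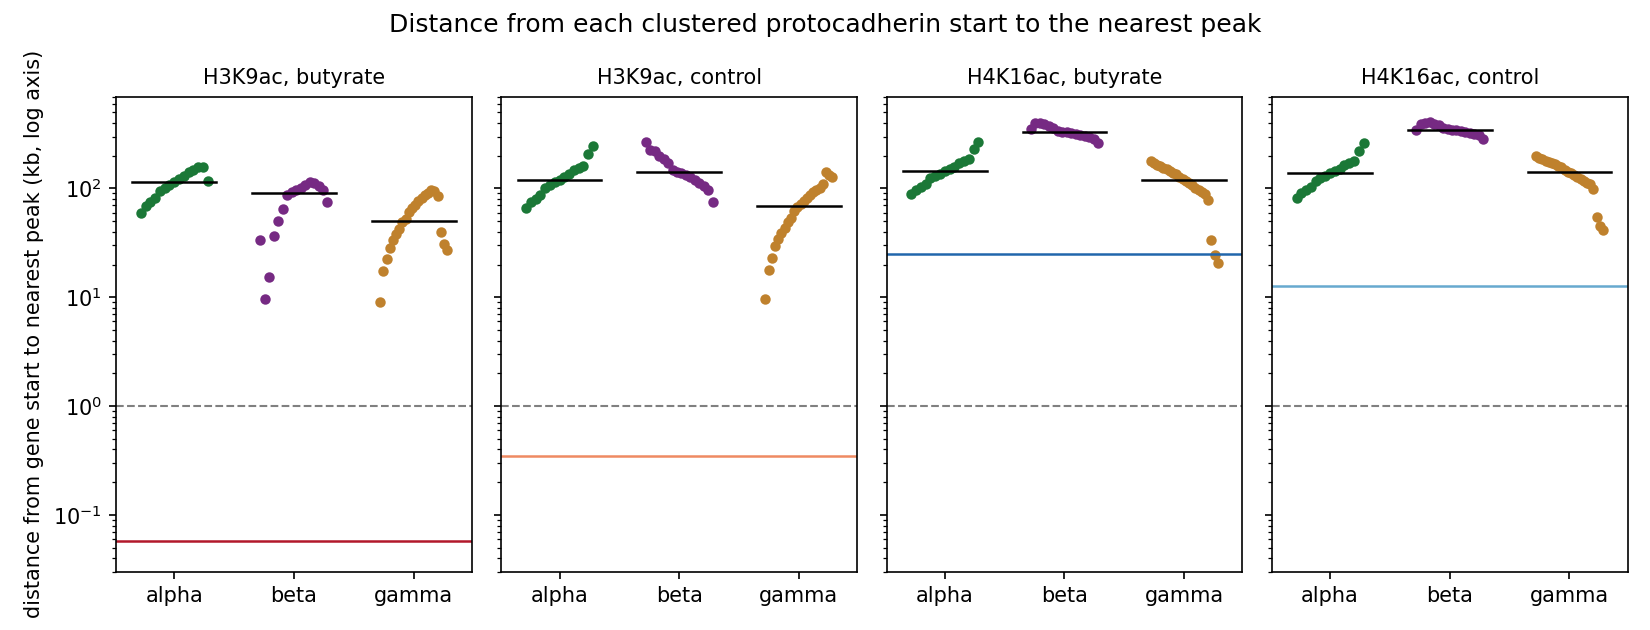
Distance in kb (log axis) from each clustered protocadherin start to the nearest peak in each of the 4 lists, genes in chromosome order within a cluster; black bars are cluster medians, the coloured line is the median of all protein-coding genes and the dashed line is the 1 kb promoter window. Every protocadherin start lies above the dashed line, from 9.06 kb upwards.

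Distances show how far from a peak these promoters lay. The nearest H3K9ac peak was 9.06 to 158 kb away with butyrate, with a median of 81.1 kb over the 53 genes (95.6 kb without the peak inside the beta cluster), and 9.73 to 269 kb away in control, with a median of 108 kb. Over all protein-coding genes the medians were 0.058 kb with butyrate and 0.352 kb in control. Of all genes, 14.5% lay farther from a butyrate H3K9ac peak than the median protocadherin, and 19.1% lay farther from a control one. Many genes elsewhere thus lay as far from a listed peak. For H4K16ac the median protocadherin was 155 kb from a peak with butyrate and 166 kb in control, where the medians of all genes were 25.2 kb and 12.6 kb. For every gamma gene and the beta genes from PCDHB4 to PCDHB15, the butyrate distance is measured to the weak peak inside the gamma cluster. That peak had a −log10 q of 0.207. Distances without it were not computed. The next butyrate H4K16ac peak downstream begins at chr5:141645128, beyond the first control one at chr5:141530416. The smaller butyrate median thus rests on the weak peak and cannot be read as a difference between conditions.

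The clusters differed from each other by where they lie, since all genes of a cluster share the same few outer peaks. In the alpha cluster the H3K9ac distance was 60.1 kb with butyrate and 65.8 kb in control at PCDHA1, the gene nearest to the upstream neighbours. It was 158 kb with butyrate and 206 kb in control at PCDHAC1, and 118 kb with butyrate and 246 kb in control at PCDHAC2. Both butyrate values are measured to the weak peak in the beta cluster, and without it they would be 200.3 kb and 240 kb. The alpha median was 115 kb with butyrate and 121 kb in control.

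In the beta cluster the median H3K9ac distance was 90.2 kb with butyrate and 140 kb in control. The butyrate value rests on the weak peak inside the cluster, the nearest one for 12 of 16 beta genes from PCDHB1 to PCDHB11, and without that peak it was 140 kb as in control. PCDHB2, next to the weak butyrate peak, was at 9.55 kb with butyrate and 226 kb in control. At PCDHB15, the gene at the cluster's other end, TAF7 was the nearest peak in both conditions, at 75.0 kb with butyrate and 75.0 kb in control. For H4K16ac the beta genes lay farthest out, with medians of 330 kb with butyrate and 348 kb in control. This butyrate median rests on the weak H4K16ac peak inside the gamma cluster, the nearest one from PCDHB4 to PCDHB15.

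In the gamma cluster the median H3K9ac distance was 50.6 kb with butyrate and 69.4 kb in control. From PCDHGA1 to PCDHGB7 the nearest peak was that of TAF7 in both conditions. The C-type genes at the other end had different values: PCDHGC3 lay 40.1 kb from an H3K9ac peak with butyrate and 141 kb in control. PCDHGC4 lay 31.0 kb away with butyrate and 132 kb in control, and PCDHGC5 27.0 kb and 128 kb. The nearest butyrate peak for these genes lay in DIAPH1 (chr5:141516046-141516567), with a fold of 3.12 and a −log10 q of 2.90. The nearest H4K16ac peak to PCDHGC5 was 20.6 kb away with butyrate and 41.3 kb away in control. The butyrate value is to the weak peak inside the cluster.

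**Figure D3:**
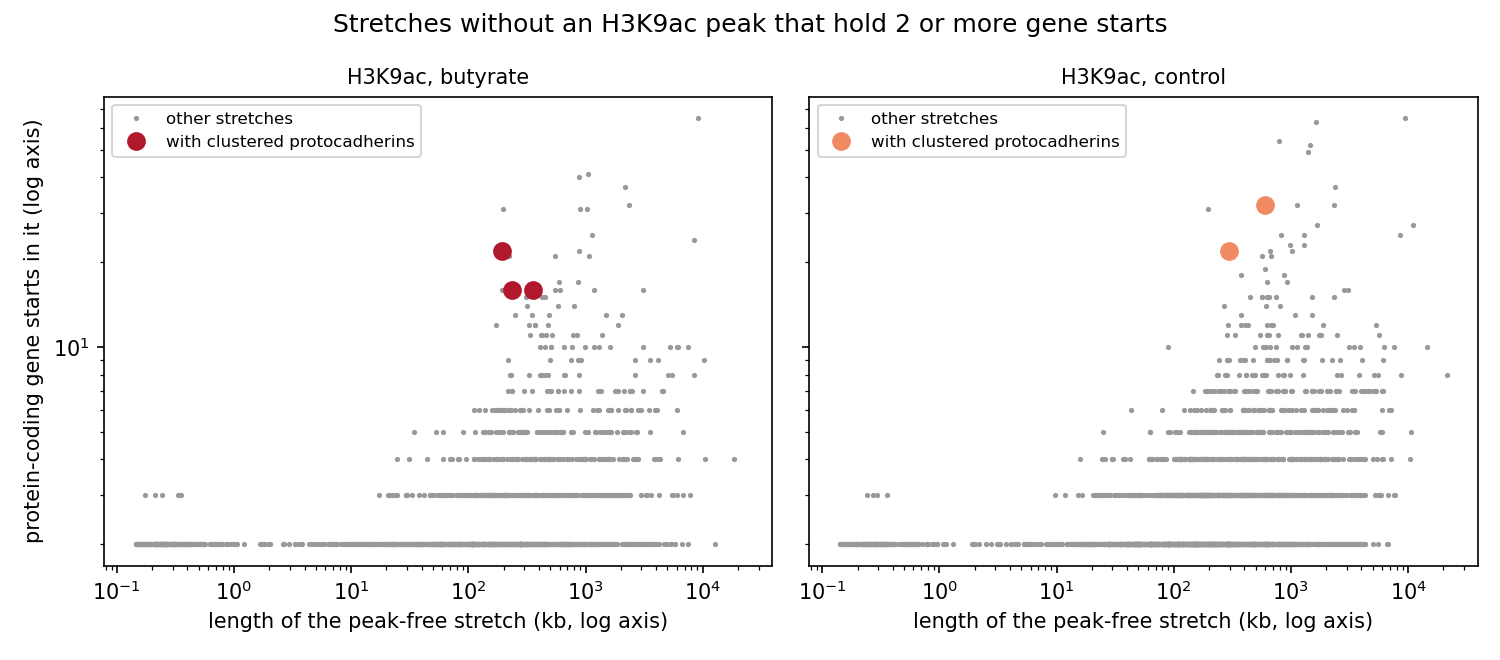
Length in kb and number of protein-coding starts (both log axes) of each stretch between neighbouring H3K9ac peaks that holds 2 or more starts, butyrate left and control right; large points are stretches with clustered protocadherins. The protocadherin stretches hold 16 to 32 starts within 195 to 600 kb, near the upper edge of gene number for stretches of their length.

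The peak-free stretches that hold the clusters were among the longer ones of each list and held many genes. In the butyrate H3K9ac list the clusters fell into 3 peak-free stretches. The alpha genes and PCDHB1 shared 359 kb with 16 starts, the other 15 beta genes and SLC25A2 shared 235 kb with 16 starts, and the 22 gamma genes shared 195 kb. By number of starts, the gamma stretch ranked 11 of 79333 and the other pair 18. By length the 3 ranked 1401, 2073 and 2456. In the control H3K9ac list the alpha and beta genes shared 1 stretch of 600 kb with 32 starts, which ranked 7 of 22192 by starts and 1056 by length. The 22 gamma genes lay in a second stretch of 296 kb, which ranked 18 by starts and 1964 by length. For H4K16ac all 53 lay in a single stretch, of 813 kb with butyrate and 827 kb in control. These ranked 5 of 33729 with butyrate and 4 of 73563 in control by number of starts, and 627 and 653 by length. Stretches with more starts were mostly other tandem families, among them olfactory receptors (OR), keratin-associated proteins (KRTAP), late cornified envelope genes (LCE) and, for H4K16ac, zinc finger genes (ZNF) of chromosome 19.

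**Figure D4:**
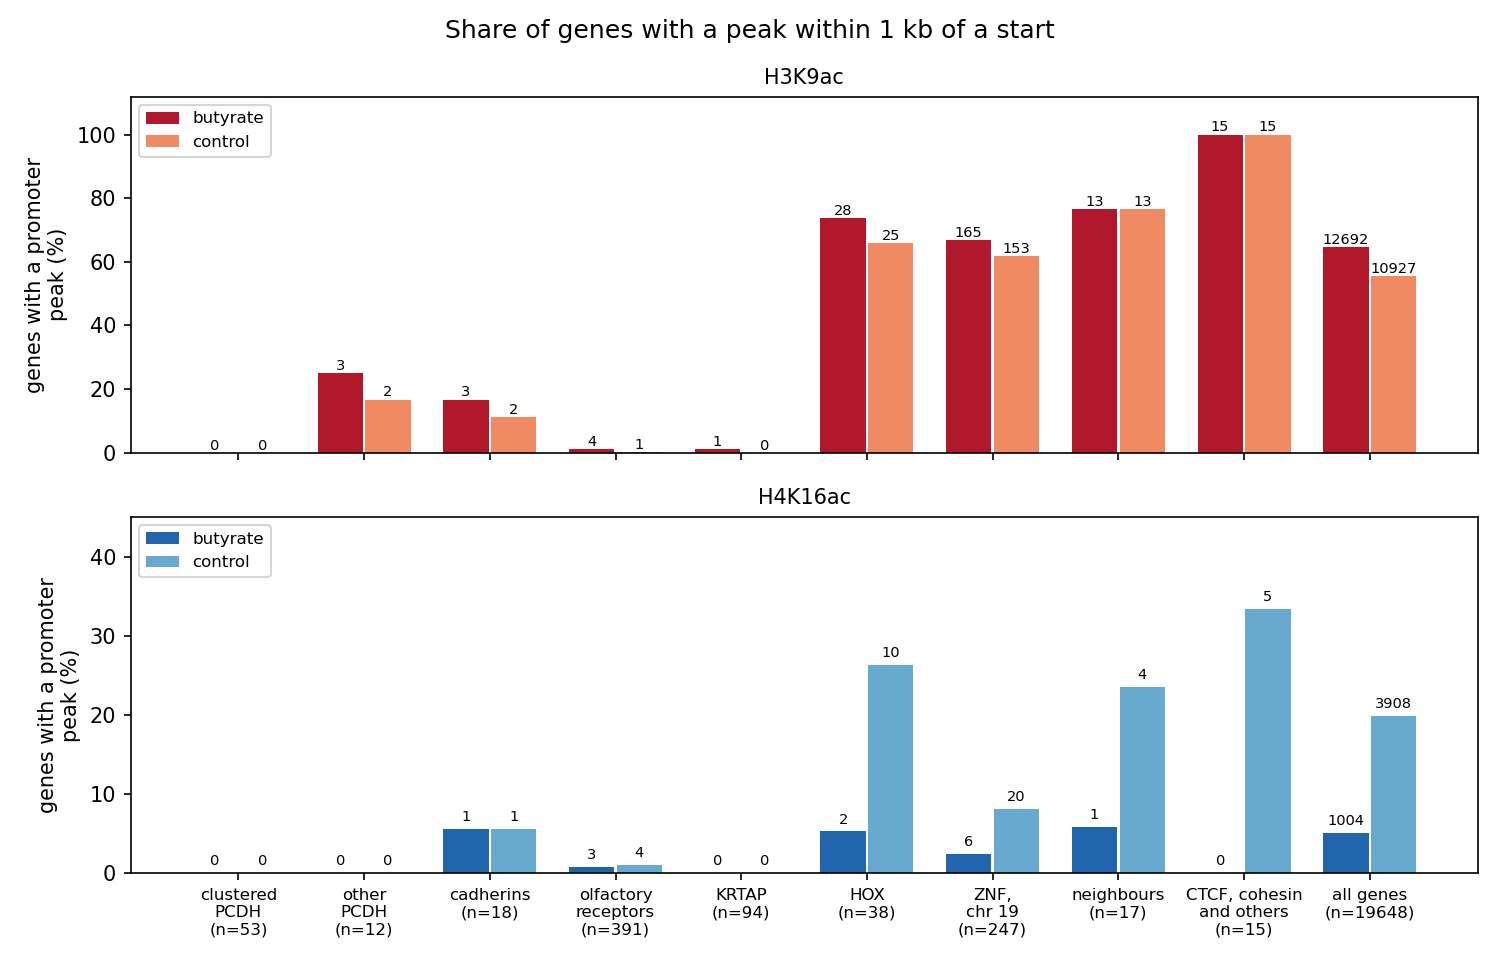
Percent of genes with a peak within 1 kb of a start, per gene list, butyrate left of control, for H3K9ac (top) and H4K16ac (bottom); numbers above the bars are gene counts and n is the list size. Clustered protocadherins are at 0 in all 4 lists, near olfactory receptor and KRTAP genes, while HOX genes, chromosome 19 ZNF genes and the neighbours are near or above the level of all genes for H3K9ac.

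Other gene families were counted beside the clustered protocadherins. Of the 12 protocadherins encoded elsewhere, 3 had an H3K9ac promoter peak with butyrate and 2 in control. PCDH7 had a fold of 5.36 with butyrate and 5.18 in control, and PCDH1 had 5.74 with butyrate and 6.64 in control. PCDH1 and PCDH12 lie on the same chromosome, beyond the gamma cluster. PCDH12 was gained, with a fold of 3.74 and a −log10 q of 5.31 with butyrate. None of the 12 had an H4K16ac promoter peak in the lists of either condition, where 5.11% of all genes did with butyrate and 19.9% in control. Among 18 cadherins numbered CDH1 to CDH20, 3 had H3K9ac with butyrate and 2 in control, CDH2 and CDH13 in both and CDH15 gained with a fold of 6.02. For H4K16ac, 1 cadherin had a peak with butyrate (CDH5) and 1 in control (CDH16).

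Other genes in tandem arrays had listed promoter peaks. Of 38 HOX genes, body-plan regulators that also lie in clusters, 73.7% had an H3K9ac promoter peak with butyrate and 65.8% in control, against 64.6% and 55.6% of all genes. The 3 that were gained were HOXD13 with a −log10 q of 16.7, HOXA6 with 11.5 and HOXA2 with 2.07. For H4K16ac, 2 HOX genes (5.26%) had a peak with butyrate and 10 (26.3%) in control, against 5.11% and 19.9% of all genes, led by a peak with a −log10 q of 5.25 that HOXC4, HOXC5 and HOXC6 share. The 2 with butyrate were HOXB2 with a −log10 q of 0.361 and HOXC8 with 0.207. Of 247 ZNF genes of chromosome 19, 66.8% had H3K9ac with butyrate and 61.9% in control, close to the shares of all genes. They gained 15, a smaller share than the 9.16% of all genes, led by ZNF442 with a −log10 q of 8.91 and ZNF175 with 7.71, with ZNF134 and ZNF444 tied at 7.33. They lost 3 of 247, a larger share than the 0.173% of all genes, namely ZNF225, ZNF724 and ZNF492. For H4K16ac, 6 ZNF genes (2.43%) had a peak with butyrate and 20 (8.10%) in control, below the shares of all genes. Of the 2 gained, ZNF234 had a −log10 q of 0.384 and ZNF566 one of 0.361. The 16 lost were led by ZNF296 and ZNF548, with a −log10 q of 2.67 each in control, followed by ZNF576 and ZNF628 with 1.77 each. Olfactory receptor genes had H3K9ac at 4 of 391 with butyrate and 1 of 391 in control, with OR14A2, OR51D1 and OR6B3 gained. For H4K16ac they had 3 with butyrate and 4 in control, with OR14A16 gained and OR2B2 and OR2B6 lost. KRTAP genes had it at 1 of 94 with butyrate (KRTAP4-8) and 0 of 94 in control.

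Genes known to act on clustered protocadherin promoters were themselves acetylated in KGN cells. The list of 15 holds CTCF, the cohesin genes RAD21, SMC1A, SMC3, STAG1 and STAG2, the cohesin loader NIPBL and its release factor WAPL. It also holds the silencing or chromatin genes SMCHD1, WIZ, SETDB1, DNMT1, DNMT3A and DNMT3B, and ZNF143. All 15 had an H3K9ac promoter peak with butyrate and all 15 in control, where 64.6% and 55.6% of all genes did. CTCF had a fold of 5.30 with butyrate and 6.17 in control, and SMCHD1 had 6.98 with butyrate and 7.16 in control. For H4K16ac, 0 of 15 had a promoter peak with butyrate and 5 of 15 in control (CTCF, SMC3, STAG1, STAG2 and WAPL), of which STAG1 had the highest −log10 q, 1.78. The strongest CTCF peak counted was chr16:67613446-67613787, with a −log10 q of 0.588. It lay inside the gene, away from the outermost start at chr16:67562526, and was counted through another start. A peak at these promoters says nothing of their proteins' amounts.

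**Figure D5:**
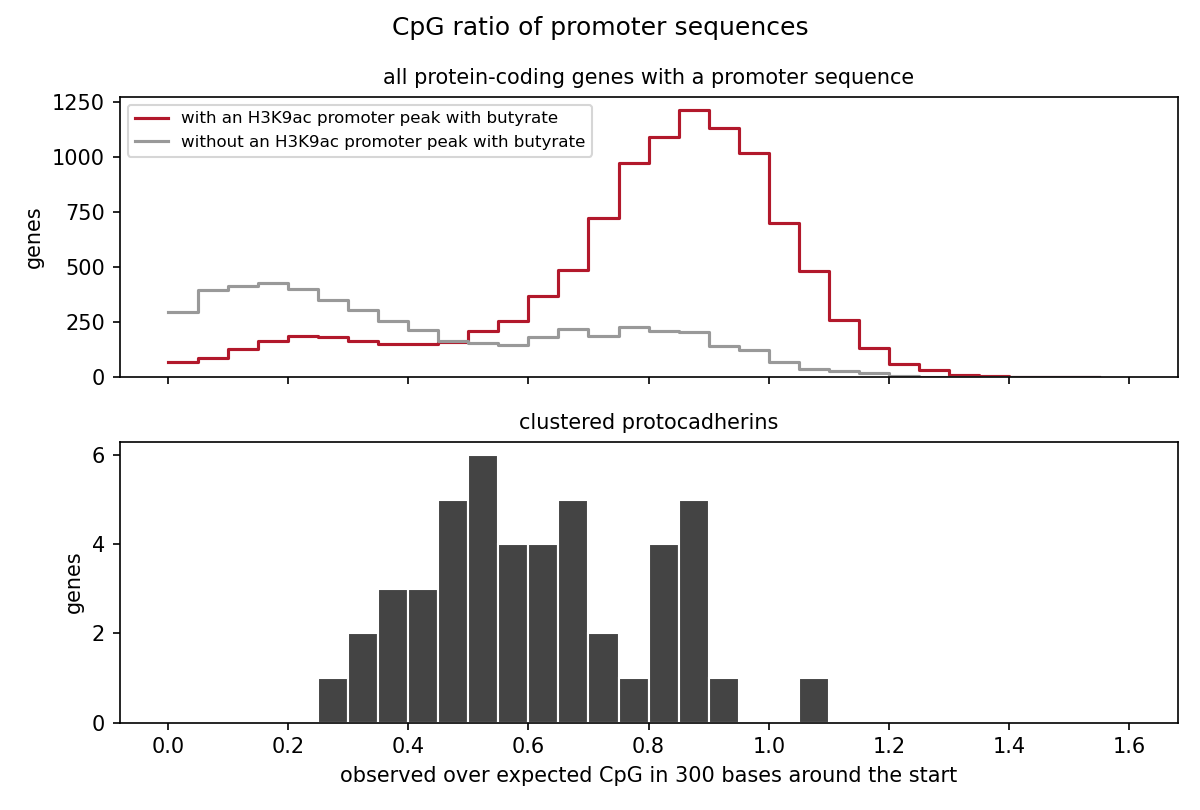
CpG ratio (observed over expected CpG number in the 300 bases around a start) against number of genes, for all protein-coding genes with a promoter sequence (top, split by an H3K9ac promoter peak with butyrate) and for the 47 clustered protocadherins with one (bottom). The protocadherins run from 0.257 to 1.07 with a median of 0.593, below the all-gene median of 0.762.

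Promoter composition differed between these genes and the rest. The 47 protocadherin promoters had a median GC content of 39.7% and a median CpG ratio of 0.593, against 62.7% and 0.762 over 15811 genes. A promoter was called CpG-rich at a GC content of at least 50% and a CpG ratio of at least 0.6. By this rule 4 of 47 (8.51%) were CpG-rich, namely PCDHAC1, PCDHGB6, PCDHGC3 and PCDHGC4, against 63.1% of all genes. Of CpG-rich genes 84.4% had an H3K9ac promoter peak with butyrate and 78.2% in control, and of the 4 protocadherins among them 0 had one in either condition. Of the remaining genes 37.5% had one with butyrate and 25.7% in control, and of the 43 protocadherins among them again 0 in either condition. For H4K16ac, CpG-rich genes had a peak at 4.26% with butyrate and 25.7% in control, and the others at 6.52% and 13.5%. The part of promoter composition in the counts was not tested.

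PCDHAC1 had the most GC-rich of the 47 windows, 66.0% with a CpG ratio of 0.841, and PCDHGA4 the poorest, 32.3% with a CpG ratio of 0.257. PCDHAC2 had a GC content of 63.0% but a CpG ratio of 0.508, and so fell outside the CpG-rich group. PCDHGC4 had 60.7% and 0.848, and PCDHGC3 59.0% and 0.690. The C-type genes with a sequence thus stood at the upper end of GC content, while their promoters were as empty of listed peaks as the others.

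The cell label was set beside its markers. Of 10 granulosa markers, 7 (70%) had an H3K9ac promoter peak with butyrate and 3 (30%) in control, where 64.6% and 55.6% of all genes did. FSHR, NR5A1 and CYP19A1, the follicle-stimulating hormone receptor, a regulator of steroid synthesis and the aromatase, had none listed in either condition. FOXL2, a transcription factor of ovarian identity, INHA, the inhibin alpha subunit, and CYP11A1, which starts steroid synthesis, had one in both. WNT4, FST, INHBA and AMHR2 were gained. Of 9 neuron markers, 3 (33.3%) had one with butyrate and 1 (11.1%) in control: TUBB3, a neuronal tubulin, in both, and MAP2 and RBFOX3 gained with −log10 q values of 5.11 and 1.94. SNAP25, also on the marker list, was not among the genes counted. Genes were left out where no strand was known and a peak lay near either end, so these shares may be low.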

How the data were processed

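The data are deposited peak lists of 6 ChIP-seq libraries, 4 of histone marks and 2 of IgG. Per the submitters' processing notes the tools were CASAVA 1.7 and MACS2 2.1.0. Neither the aligner nor the handling of duplicates is given in the sources used here. Every list comes from 1 library's narrow peak call, per the file headers. The fold is the authors' deposited ratio, read as summit pileup plus 1 over local background plus 1. The deposited −log10 p and −log10 q are the authors' caller's values. The H3K9ac lists end at a q of 0.05, while the H4K16ac lists reach a q of 0.621 with butyrate and 0.304 in control. The names of peaks in the H4K16ac lists carry k12 in place of a lysine 16, and H4K16ac here means the libraries so labelled.

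The notes name build hg19 (GRCh37), but gene positions in the authors' columns match RefSeq GRCh38.p14, and coordinates are read as GRCh38, 1-based. Rows that share bases were merged, on chromosomes 1 to 22 and X. Gene starts came from RefSeq and the authors' columns, and either counted. A gene could have several starts, so a counted peak can lie far from the outermost one. All members with a known strand (48) are on the plus strand. For PCDHA3, PCDHA13, PCDHB6, PCDHB11 and PCDHGA12 the lower coordinate served as the start. For their promoter counts both gene ends were searched. Of 19970 protein-coding genes, 322 with no known strand and a peak near either end were left out, and 1191 with no known strand and no peak near either end count as having none. The gene lists lack any member left out, which can lower their shares. HOXB4, HOXC10 and CDH3 are absent from the lists counted, and the joint entry HOXA10-HOXA9 counts as 1 HOX gene. Depth, fragment length and background pileup were solved from fold and p, assuming a genome of 2700 Mb, and the method was tested on simulated data. Python 3.11.15, pandas 2.3.3, numpy 2.4.6, scipy 1.17.1 and matplotlib 3.10.9 were used.

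With 1 library per condition no test was made and no error can be given. Alternatives were the window, the gene start, the authors' own gene assignment, list length and limits of p, q and fold. Genes named outside the clusters are, per list, those that gained or lost a promoter peak where 5 or fewer did, otherwise the 3 strongest with ties. The genes singled out from the olfactory receptor, KRTAP, neighbour, regulator and marker lists, and the sequences shown, were chosen after their values were seen. The members and lists were chosen with earlier results of these data known, and the olfactory receptor and KRTAP families, the peak-free stretches and the distances without the peak inside the beta cluster were added after seeing the data. Input libraries were not analysed here, and 1 gene of the list of promoter regulators is not reported here.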

Additional observations from a re-analysis of the deposited data

How the results depend on the processing

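The promoter counts of clustered protocadherins were 0 for both marks and conditions. A window of 2.5 kb also gave 0. The nearest peak of any list lay 9.06 kb from a protocadherin start, so this outcome was already fixed by the distances. The authors' own closest-gene columns gave 0 too, but their starts already counted in the main setting, so this adds little. A window of 500 bp, RefSeq starts alone and limits on number, p, q or fold can only remove peaks, so their counts of 0 say nothing of stability. Of 50 alternative values 7 moved, all of them counts of peaks across the clusters. The H3K9ac count with butyrate was 1 as deposited. It became 0 with equal numbers of top peaks, 0 at a fold of at least 5 and 0 when −log10 q had to reach 5. It became 3 with clusters extended by 10 kb, which takes in the peaks at TAF7 and in DIAPH1, and the control count then became 1, at TAF7. The H4K16ac count with butyrate was 1 as deposited, and became 0 at a fold of at least 5 and 0 at a q of 0.05 or less. Both peaks inside the clusters thus depend on the limits of the lists. At a q of 0.05 or less, 381 of 33752 H4K16ac peaks remained in the whole butyrate list and 29141 of 73586 in the control list.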

Other observations

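The H3K9ac peaks nearest to the alpha cluster on its upstream side lay at vault RNA genes, which encode short RNAs of the cytoplasmic vault particle. The long noncoding RNA gene LOC105378198 spans these genes and has 4 H3K9ac peaks in it or within 1 kb with butyrate and 2 in control, so the peaks cannot be assigned to the vault RNA genes alone. VTRNA1-1 had a peak within 1 kb in both conditions, 1292 bp wide with a fold of 3.91 with butyrate and 664 bp wide with a fold of 3.78 in control. VTRNA1-2 had 2 peaks with butyrate, the stronger 1710 bp wide with a fold of 4.27, and 1 in control, 519 bp wide with a fold of 3.99. VTRNA1-3, the vault RNA gene nearest to PCDHA1, had a peak of 487 bp with a fold of 2.75 and a −log10 q of 3.54 with butyrate and none listed in control. That −log10 q is above the lowest value of the control list, 1.30. No H4K16ac peak was listed within 1 kb of these 3 genes in either condition.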
